A study of Mus musculus with 3 samples.

Results

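Aminoacyl-tRNA synthetases are the enzymes that load each transfer RNA with its amino acid. The set described here holds 36 mouse genes, 20 for the cytosolic enzymes and 16 for the mitochondrial ones, whose symbols end in 2, out of 19057 genes with a named probe. Members were found by gene symbol alone. The family itself was chosen with earlier results of these data known. For 35 of them at least 1 probe was paired with the gene, 77 probes in all, and Mars is carried in the annotation as Mars1. Dars, for aspartyl-tRNA synthetase, has no probe paired with it in the annotation used here and is not analysed here. The cells were LLC/luc, Lewis lung carcinoma cells of C57BL/6 mice that carry luciferase. Parental cells (P) had not been through a mouse. LLC/luc BM 1st cells were cultured from bone lesions that formed after parental cells had been injected into the heart, and LLC/luc BM 2nd cells from bone lesions that formed after BM 1st cells had been injected in turn. The paper gives a medium for the LLC/luc line and no separate one for the sub-lines. The sub-lines were cultures of harvested marrow, so host cells could be carried along. Each line's RNA was read on 1 single-colour Illumina bead array covering the mouse genome.

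In the cytosol these enzymes feed protein synthesis by the large ribosomal machinery, and several of them sit together in the multisynthetase complex. The mitochondrial enzymes, also encoded in the nucleus, serve the small set of proteins made inside the organelle. Gars and Kars each encode the enzyme of both compartments, and mitochondria make glutaminyl-tRNA by a detour through glutamyl-tRNA. When amino acids are short or the endoplasmic reticulum is stressed, phosphorylation of eIF2 increases translation of the transcription factor ATF4, and many cytosolic synthetase genes are among its known targets in mammals.

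With 1 array per cell line, no value has a replicate and no p-value is given. Differences are log2 ratios of the linear intensities as deposited, with each gene represented by the probe that was brightest on average (mean log2 intensity). The 1504 probes for olfactory and vomeronasal receptors served as background, whose 95th percentile lay between 107 and 110. Genes above it on either array of a pair were compared, and past a ratio of 2-fold they were counted as higher or lower, 2-fold being the study's own threshold. A looser 1.5-fold was read beside it. No yardstick used here measures error between arrays or cultures. The spread between probes is technical, and the spread of all genes also holds differences between the lines. Probes of the same gene differed with a median SD of 0.14 in the log2 BM 2nd/P ratio over 3154 genes, and all genes compared had a robust SD of 0.30 around a median of 0.01. Background light is still part of each intensity, which shrinks the ratio of a dim gene. Where background was subtracted as an alternative, the amount was smaller than that 95th percentile. Intensities under 10 after subtraction were set to 10, the floor. In bulk RNA like this, fewer cells that express a gene and less of its RNA per cell cannot be told apart. Intensities of different probes cannot be set against each other as levels.

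Cytosolic synthetases had lower intensities in BM 2nd cells than in the parental line, and the mitochondrial ones as a group were close to the parental level. Of 19 cytosolic genes above background, 17 had a log2 BM 2nd/P ratio below 0, with a median of -0.48, against a median of -0.15 for 14 mitochondrial genes. Yars, Nars2 and Wars2 passed the filter on the parental array alone, which fixed their direction. With both arrays above background the medians were -0.59 for 18 cytosolic and -0.10 for 12 mitochondrial genes. Past 2-fold, 5 cytosolic genes were lower (26.3%) and 0 higher. Among the mitochondrial genes 0 were lower and 0 higher, but with background subtracted Mars2 and Nars2 were lower past 2-fold. The size of that Nars2 ratio was set by the floor after subtraction. Of all 10579 genes compared, 1.53% were lower and 1.83% higher. Past 1.5-fold, 9 cytosolic genes were lower (47.4%) and 0 higher, against 6.13% lower and 6.76% higher of all genes. Among the mitochondrial genes 1 was lower and 1 higher at that threshold.

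The gene with the most negative ratio of the family was Wars, which encodes tryptophanyl-tRNA synthetase. Its intensity was 2229 (parental), 1155 (BM 1st) and 639 (BM 2nd), for a log2 BM 2nd/P value of -1.80, which ranked 16 from the lowest of the 10579 genes compared. Sars, for seryl-tRNA synthetase, followed at 2775, 2736 and 1109 in parental, BM 1st and BM 2nd cells, a ratio of -1.32. Wars was thus already dimmer in BM 1st cells, whereas Sars was level in BM 1st and parental cells on this probe. The asparaginyl enzyme gene Nars stood at 2239, 1665 and 981 in the same order (-1.19) and the leucyl enzyme gene Lars at 11302, 8912 and 5236 (-1.11). Mars1, for the methionyl enzyme that also charges the initiator tRNA, had intensities of 1196 (parental), 959 (BM 1st) and 569 (BM 2nd) (-1.07). These 3 were dimmer after each round of selection.

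Just inside the 2-fold threshold lay Aars, for alanyl-tRNA synthetase, with intensities of 5266, 4602 and 2683 in parental, BM 1st and BM 2nd cells, or -0.97 as log2 BM 2nd/P. Iars, for isoleucyl-tRNA synthetase, stood at 2915, 3011 and 1714 (-0.77). Eprs, whose single protein carries both the glutamyl and the prolyl enzyme, stood at 1055, 1049 and 634 (-0.74). The threonyl enzyme gene Tars stood at 461, 379 and 282 (-0.71). On these probes Iars and Eprs were level in BM 1st and parental cells and dimmer in BM 2nd cells alone. Gars, for the glycyl enzyme, stood at 19610, 21298 and 14104 and had a ratio of -0.48. Farsb, for the beta subunit of phenylalanyl-tRNA synthetase, had a ratio of -0.36, Rars, for the arginyl enzyme, -0.29, Kars, for the lysyl enzyme, -0.27, and Vars, for the valyl enzyme, -0.21.

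Qars, for glutaminyl-tRNA synthetase, went the other way, at 3353 (parental), 4579 (BM 1st) and 4324 (BM 2nd), or 0.37 as log2 BM 2nd/P. Its other probes above background gave 0.09 and 0.10, so the size of that difference rests on the brightest probe. The remaining cytosolic genes were read close to background. Cars, for the cysteinyl enzyme, stood at 169 in BM 2nd and 190 in parental cells on its brightest probe, and Hars, for the histidyl enzyme, at 160 in BM 2nd and 147 in parental cells. Farsa, for the alpha subunit of the phenylalanyl enzyme, was at 107 in BM 2nd and 112 in parental cells. Yars, for the tyrosyl enzyme, fell short of background in BM 2nd cells, against 123 in parental cells. For these 4 genes the array has little room to show a lower level.

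**Figure D1:**
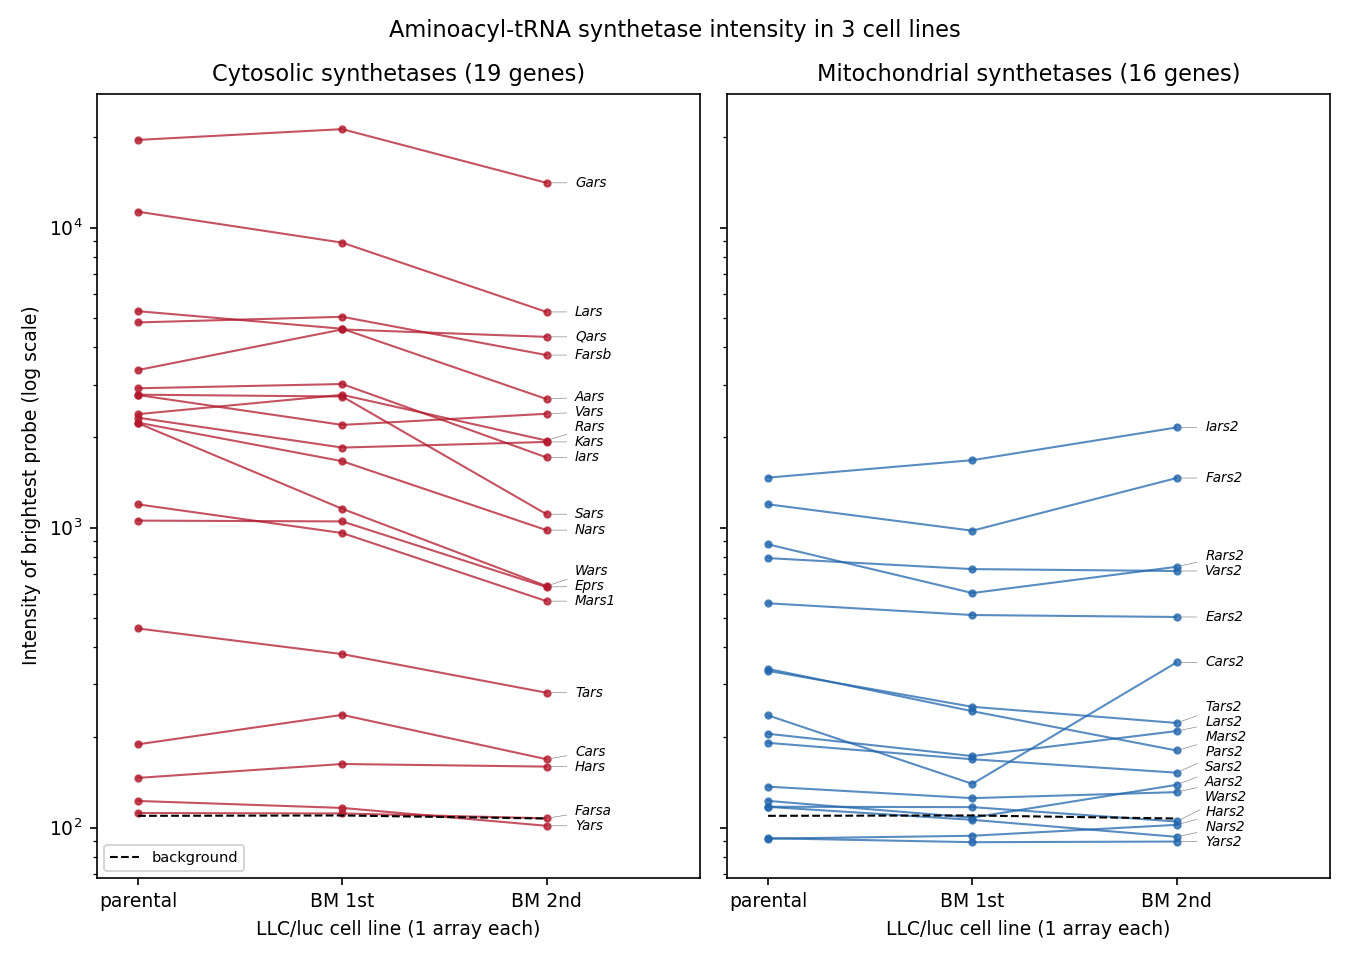
Intensity of the brightest probe (vertical log axis) of 19 cytosolic (left) and 16 mitochondrial (right) synthetase genes on the single array of each LLC/luc line; points of a gene are joined and the dashed line is background. Most cytosolic genes are dimmest in BM 2nd cells, such as Sars with 1109 in BM 2nd and 2736 in BM 1st cells, while the mitochondrial genes go in both directions.

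Other probes of the same genes gave the same direction for most members. Among the 20 further probes of 14 cytosolic genes that were above background, 17 had a log2 BM 2nd/P ratio below 0, and 7 were below -1, with a median of -0.65. The 3 further Wars probes had ratios of -1.50, -1.33 and -1.09, so all 4 were past 2-fold. The second Sars probe above background gave -1.57 and the second Lars probe -1.04. Both further Eprs probes gave -1.07, past the threshold that its brightest probe missed, and the second Mars1 probe gave -0.85, short of the threshold that its brightest probe passed. Nars has 1 probe, and Aars 1 that was above background, so neither has this check.

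**Figure D2:**
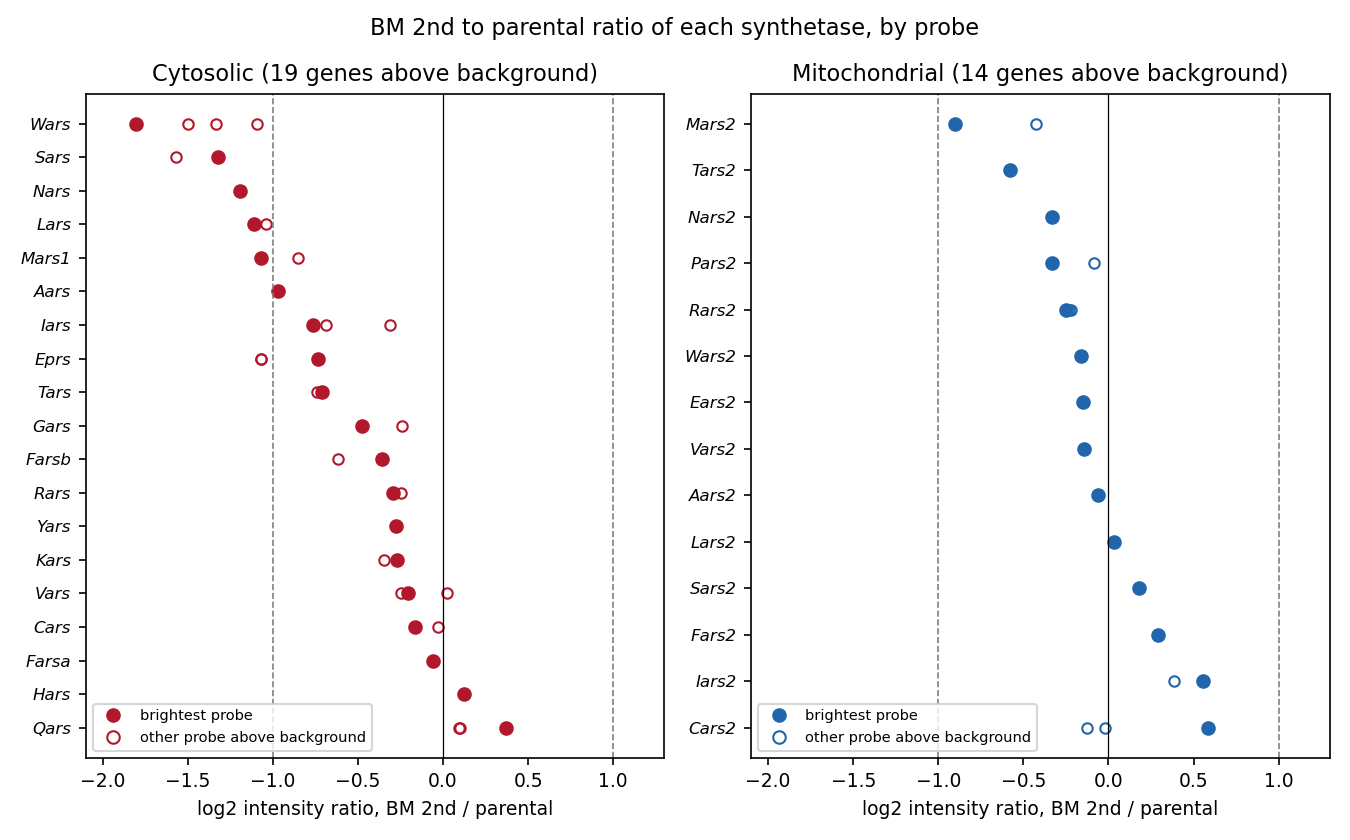
Horizontal axis, log2 of the BM 2nd over the parental intensity, for each cytosolic (left) and mitochondrial (right) synthetase gene above background, with the brightest probe as a filled and other probes above background as open circles; dashed lines mark 1 and -1. All 4 Wars probes lie left of -1, and the mitochondrial genes scatter on both sides of 0.

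Structural grouping separated the cytosolic genes little. Synthetases fall into 2 classes by the fold of their catalytic domain, and Eprs holds one of each. The 9 class I genes had a median log2 BM 2nd/P ratio of -0.29, with 3 past 2-fold, and the 9 class II genes a median of -0.48, with 2 past it. Among the 7 measured enzymes of the multisynthetase complex the median was -0.74, from -1.11 for Lars to 0.37 for Qars. The 12 enzymes outside it had a median of -0.42, from -1.80 for Wars to 0.12 for Hars. Cars, Hars, Farsa and Yars, read close to background, are all outside the complex and raise that median. The 2 medians are thus not matched for brightness. These ranges overlapped nearly throughout, and no test of the differences between the medians is possible here.

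A DNA element that ATF4 binds together with C/EBP proteins lies near the start of some of these genes, and it is shown because the members that carry it can then be read beside their values. Its core, TGATGNAA or TTNCATCA on the opposite strand, was searched on both strands in the RefSeq promoter windows of GRCm38.p6, from 250 bases before to 50 after each start. It occurs in 3.97% of all 32851 windows, in those of 5 of 13 cytosolic synthetase genes with a window, and in those of 0 of 14 mitochondrial ones. The windows of Cars, Hars, Lars, Nars, Rars, Vars and Wars were not used here. The stretches around the match are written 5′ to 3′ on the strand of the gene, with the match in capitals, and a match is a description of the letters and not of binding.
Aars, chr8:111033704-111033763, + strand: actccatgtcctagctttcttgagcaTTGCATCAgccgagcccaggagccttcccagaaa
Gars, chr6:55037945-55038004, + strand: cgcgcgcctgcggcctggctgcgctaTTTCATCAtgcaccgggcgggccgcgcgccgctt
Iars, chr13:49682111-49682170, + strand: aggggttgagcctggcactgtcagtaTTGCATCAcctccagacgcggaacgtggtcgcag
Tars, chr15:11399640-11399699, - strand: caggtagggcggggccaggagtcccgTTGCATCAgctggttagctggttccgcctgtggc
Yars, chr4:129189880-129189939, + strand: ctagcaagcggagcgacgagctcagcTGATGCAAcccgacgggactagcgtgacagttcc
The match begins 112 bases before the start in Aars, 30 before it in Gars and 15 before it in Tars, and it begins 7 bases after the start in Iars and 3 after it in Yars. Aars has a further match that begins 9 bases after the start. Among the 5 genes with a match the log2 BM 2nd/P ratios were -0.97 (Aars), -0.77 (Iars), -0.71 (Tars), -0.48 (Gars) and -0.27 (Yars). Yars passed the filter on the parental array alone, which fixed its direction. The Yars ratio also lay within the range of the receptor probes (-0.33 to 0.34), so no lower level can be read from it. Cytosolic genes whose window was searched and lacks these letters ranged from -1.32 for Sars and -1.07 for Mars1 to 0.37 for Qars, so the ranges overlapped. Of the 5 members past 2-fold, 3 (Wars, Nars and Lars) were not searched.

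Among the mitochondrial genes Mars2, for methionyl-tRNA synthetase, had the most negative ratio. It stood at 338 (parental), 244 (BM 1st) and 181 (BM 2nd), -0.90 as log2 BM 2nd/P, and its other probe gave -0.42. Tars2, for the threonyl enzyme, followed at 333, 253 and 223 (-0.58). Iars2, for the isoleucyl enzyme, was brighter after each round, at 1468, 1678 and 2157 (0.56), and its other probe gave 0.39. Fars2, for the phenylalanyl enzyme, stood at 1196, 977 and 1464 (0.29). Cars2, for the cysteinyl enzyme, had the highest ratio, 0.59, at 237, 140 and 355, but its other probes gave -0.02 and -0.12.

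Rars2, for the arginyl enzyme, stood at -0.25 as log2 BM 2nd/P, and its 2 further probes above background gave -0.23 and -0.22. Ears2, for the glutamyl enzyme from which mitochondria also derive glutaminyl-tRNA, was at -0.15 and Vars2, for the valyl enzyme, at -0.14. Pars2, for the prolyl enzyme, was at -0.33 with intensities of 152 in BM 2nd and 192 in parental cells. Lars2 (0.03), Aars2 (-0.06) and Sars2 (0.18), for the leucyl, alanyl and seryl enzymes, lay below an intensity of 210 throughout. Nars2 and Wars2, for the asparaginyl and tryptophanyl enzymes, fell short of background in BM 2nd cells, against 117 each in parental cells. Hars2 and Yars2, for the histidyl and tyrosyl enzymes, were not above background on any array and entered no comparison.

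Many mitochondrial genes were read near background, where ratios shrink, so both groups were also compared among genes with a geometric mean intensity of at least 500 over the 3 arrays, a limit set with the values in view. Of the 14 cytosolic genes left, 13 had a log2 BM 2nd/P ratio below 0, with a median of -0.75. The 5 mitochondrial genes left, Iars2, Fars2, Rars2, Vars2 and Ears2, had a median of -0.14 and ranged from -0.25 to 0.56. The median of all 4029 genes in that range was 0.002. Past 2-fold 5 of these cytosolic genes were lower and 0 higher, against 2.83% lower and 2.28% higher of the 4029. Past 1.5-fold 8 were lower and 0 higher, against 10.1% lower and 9.08% higher. None of the 5 mitochondrial genes passed either threshold.

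Genes of the 2 compartments were also set side by side for the same amino acid, with Eprs in 2 pairs and the phenylalanyl enzyme represented by Farsb. The cytosolic gene had the lower log2 BM 2nd/P ratio in 14 of 14 pairs compared on the deposited intensities, and in 12 of 12 with both genes above background on both arrays. With background subtracted it was lower in 12 of 14, since methionine (Mars1 -1.21, Mars2 -1.47) and asparagine (Nars -1.27, Nars2 -1.29) turned. The median difference, cytosolic minus mitochondrial, was -0.70 over the 14 pairs and -0.67 with background subtracted. Serine (-1.50), isoleucine (-1.32) and leucine (-1.14) were below -1 on the deposited intensities, and at -2.04, -1.38 and -1.19 with background subtracted. The serine difference depends in part on Sars2, whose 1 probe lay near background at 123 (parental) and 139 (BM 2nd). The Sars2 ratio of 0.18 was within the range of the receptor probes (-0.33 to 0.34), and subtraction raised it to 0.64. The size for serine is thus uncertain. For tryptophan the size is open to the background, since Wars2 was not above it in BM 2nd cells, and the difference was -1.03 once background was subtracted. For arginine, valine, threonine and methionine the genes of a pair differed by 0.17 or less, about the spread between probes of one gene.

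**Figure D3:**
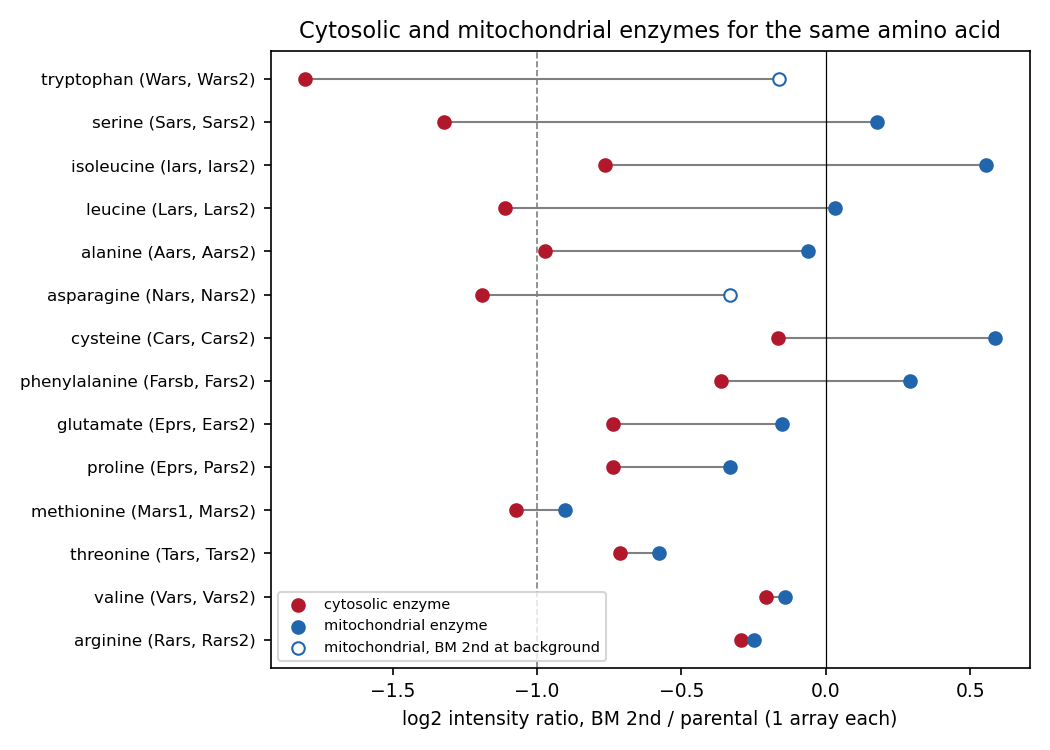
Horizontal axis, log2 of the BM 2nd over the parental intensity, of the cytosolic (red) and the mitochondrial (blue) synthetase gene for the same amino acid, 14 pairs, 1 array per cell line, brightest probes; the dashed line marks -1, and open circles are genes not above background in BM 2nd cells (Wars2 and Nars2). Red lies left of blue in all 14 pairs on these deposited intensities and in 12 of 14 once background is subtracted.

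After the first round of selection the cytosolic genes lay near the parental level on their brightest probes and somewhat below it on others. In BM 1st against parental cells the median log2 ratio was -0.02 on the brightest probes, with 12 of 19 below 0, against -0.28 on the second brightest probes of 14 genes. Past 2-fold 0 members of either compartment were higher or lower, against 2.04% higher and 1.79% lower of 10377 genes compared. Past 1.5-fold 2 members were lower, Wars at -0.95 and Cars2 at -0.76, and 0 were higher, against 6.37% lower and 6.5% higher of all genes. Qars (0.45) and Cars (0.33) had the highest ratios, and Nars (-0.43) the most negative after Wars among the cytosolic genes. The mitochondrial median was -0.18, and 13 of 14 ratios were below 0, among them Rars2 at -0.54, Mars2 at -0.47 and Tars2 at -0.40. That median was -0.21 over the 12 genes above background on both arrays.

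Between the sub-lines the 2 compartments differed more. In BM 2nd against BM 1st cells 17 of 19 cytosolic genes had a log2 ratio below 0, with a median of -0.51, while 6 of 13 mitochondrial genes did, with a median of 0.07. With both arrays above background the medians were -0.55 for 18 cytosolic and 0.07 for 11 mitochondrial genes. Past 2-fold, Sars was lower at -1.30 and Cars2 higher at 1.34, against 1.78% lower and 3.01% higher of 10562 genes. Past 1.5-fold, 9 cytosolic genes were lower, Wars (-0.86), Iars (-0.81), Aars (-0.78), Lars (-0.77), Nars (-0.76), Mars1 (-0.75), Eprs (-0.73) and Gars (-0.59) beside Sars. Cars2 alone of the family was higher, against 7.11% lower and 8.54% higher of all genes. Of the 13 pairs measured, the cytosolic gene had the lower ratio in 12, the exception being valine. The other Cars2 probes gave 0.23 and 0.05, and with its probes averaged 0 members were higher past 2-fold.

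For 16 of the 19 cytosolic genes the second step (BM 2nd/BM 1st) was more negative than the first (BM 1st/P), and for 2 of 14 mitochondrial genes. Both steps share the BM 1st array, so these counts are no independent measure of each step. Proliferation genes differed in BM 1st cells. Of 9 compared there, 6 were lower past 2-fold and 0 higher, against 1.79% and 2.04% of all genes. Their median log2 BM 1st/P ratio was -1.27. Tyms, of thymidylate synthesis, stood at -2.44 and the replicative helicase subunit gene Mcm5 at -2.42. In BM 2nd against parental cells 0 of 10 were lower and 0 higher, with a median of 0.14. The part of the growth state of the cultures in the synthetase values was not tested.

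Genes that work with the synthetases differed unevenly. Of the 3 scaffold proteins of the multisynthetase complex, Eef1e1 had a log2 BM 2nd/P ratio of -0.74, with intensities of 1508 in BM 2nd and 2523 in parental cells, while Aimp2 (-0.36) and Aimp1 (-0.20) differed less. The 5 cytosolic elongation factors, which carry charged tRNA to the ribosome and move it along, had a median of 0.05, and the most negative was Eef2 at -0.32. The 13 mitochondrial translation factors and subunits of the amidotransferase that makes glutaminyl-tRNA had a median of -0.27. None was past 2-fold, Mrrf, a ribosome recycling factor, was at -0.75 and Mtif2, an initiation factor, at 0.63.

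Several regulators of synthetase transcription and other targets of ATF4 also had lower intensities in BM 2nd cells. Atf4 itself, which is controlled largely at translation, stood at 6923 (parental), 6493 (BM 1st) and 5172 (BM 2nd), or -0.42 as log2 BM 2nd/P. Of the 6 regulators listed 3 were lower past 2-fold and 0 higher, namely Ddit3, which encodes the stress factor CHOP (-1.45), Cebpg, a partner of ATF4 (-1.30), and Atf5 (-1.24). Myc, which drives growth genes, stood at -0.87. Of 21 ATF4 targets above background outside the synthetases, 9 were lower past 2-fold and 0 higher, with 20 below 0 and a median of -0.88. Of all genes compared, 1.53% were lower and 1.83% higher past 2-fold. The pseudokinase gene Trib3 was at -3.26, Stbd1 at -1.72, Cth, of cysteine synthesis, at -1.66, Chac1, which degrades glutathione, at -1.36 and Mthfd2, of mitochondrial folate metabolism, at -1.31. The list was drawn up with earlier results of these arrays known, so its direction is not independent evidence.

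In BM 1st cells the ATF4 targets lay on both sides of 0. Their median log2 BM 1st/P ratio was -0.004. Past 2-fold 2 were higher, the cystine transporter gene Slc7a11 at 2.20 and Nupr1 at 1.02, and 1 lower, Trib3 at -1.24. Of all genes 2.04% were higher and 1.79% lower there. In BM 2nd against BM 1st cells 12 of 21 ATF4 targets were lower and 0 higher (median -1.11), against 1.78% and 3.01% of all genes. Of the eIF2 kinases, Eif2ak3 and Eif2ak4, the sensors of endoplasmic reticulum stress and of uncharged tRNA, were not above background on any array. Among 11 genes of eIF2, its kinases, its exchange factor and its phosphatase above background, 1 was lower past 2-fold in the BM 2nd/P comparison, Ppp1r15a, a phosphatase subunit itself induced by stress, at -2.07, and the median was 0.02.

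Wars is known in mammals to be induced by interferon-gamma as well. Of 8 interferon-gamma induced genes above background, 1 was higher in BM 2nd than in parental cells past 2-fold, Irf1 at a log2 ratio of 3.29, 0 were lower, and the median was 0.40. Of all genes 1.83% were higher and 1.53% lower past 2-fold. Psmb10, of the immunoproteasome, was at 0.37. Cxcl10 passed the filter on the BM 2nd array alone, which fixed its direction, and Psmb8, Psmb9 and Gbp2 were read near background. Wars was at -1.80, and the part of interferon-gamma in its value was not tested. This list too was drawn up with earlier results of these arrays known.

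**Figure D4:**
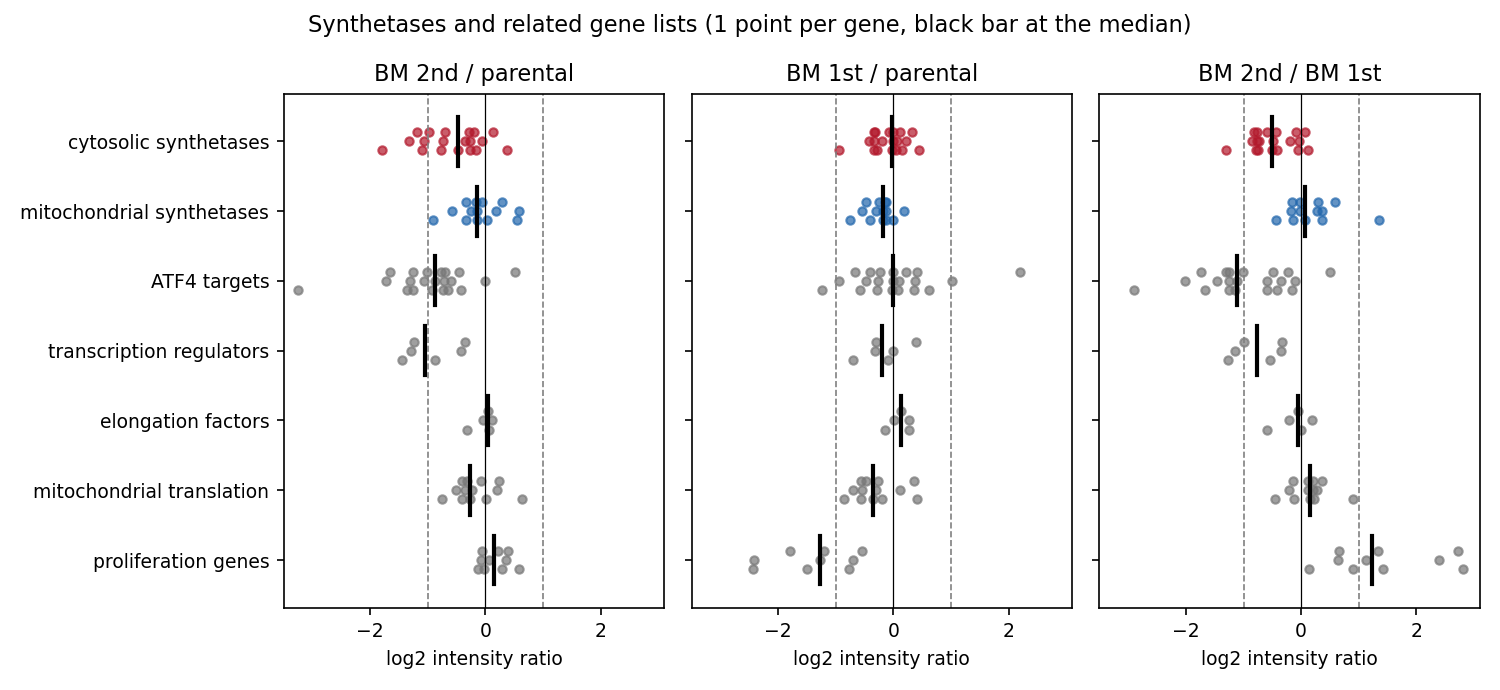
Log2 intensity ratios (horizontal axes; one panel each for BM 2nd/P, BM 1st/P and BM 2nd/BM 1st) of cytosolic synthetases (red), mitochondrial synthetases (blue) and related gene lists (grey), 1 point per gene above background, 1 array per cell line, black bars at the medians and dashed lines at 1 and -1. Cytosolic synthetases and ATF4 targets have medians of -0.48 and -0.88 in the left panel and lie around 0 in the middle one; the comparisons share arrays.

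Markers of other cells differed between the lines too. Of the epithelial markers Krt8, Krt18 and Cdh1 were above background on all 3 arrays and Epcam, Krt19 and Cldn4 on none, and the summed intensity of the 6 was 3790 (parental), 3649 (BM 1st) and 4165 (BM 2nd). Of 7 leukocyte markers with a probe, the number above background was 1 (parental), 5 (BM 1st) and 4 (BM 2nd). Lyz2 (1078 in BM 1st, 365 in BM 2nd), Laptm5 (367, 184) and Fcer1g (255, 128) were above it in both sub-lines and not in parental cells. Tyrobp and Itgam were above it on no array. The summed intensities of the 7, background light included, were 687, 2129 and 1077. The 8 stroma markers summed to 2990, 10104 and 16037, and 5 were above background on each array. Most of the BM 2nd sum came from Dcn (6174) and Lum (6133), both of which cells other than stroma can also express. Of 6 stroma markers compared, 4 were higher past 2-fold in BM 2nd than in parental cells and 0 lower. Beside Dcn and Lum these were Pdgfra (258 parental, 1068 BM 2nd) and Col1a1. Of all genes 1.83% were higher and 1.53% lower. Col1a1 read 96 (parental, below background), 120 (BM 1st) and 412 (BM 2nd). Col3a1 had a log2 BM 2nd/P ratio of 0.81. Such sums add different probes and do not measure the share of host cells. Pdgfrb and Thy1 were above background on no array and Col1a2 in neither sub-line. Their part in the synthetase values was not tested.

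The counts also depend on how the arrays are scaled to each other. Scaled to a common median over the probes above background on each array, which was tried only after the values were known, every log2 BM 2nd/P ratio was 0.14 higher, the split of all genes past 2-fold became 285 higher and 106 lower in place of 194 and 162, and 3 synthetase genes remained past it, Wars, Sars and Nars. Of the 19 cytosolic ratios 16 were still below 0, with Farsa the one that changed sign, and their median was -0.34. In BM 2nd against BM 1st cells that scaling added 0.16 to each ratio, gave 465 higher and 115 lower of all genes in place of 318 and 188, and left 14 of 19 cytosolic ratios below 0, Farsa, Hars and Qars having changed sign.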

How the data were processed

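The intensity values that the authors deposited came from 3 Illumina bead arrays, 1 per cell line. The submitters' processing notes name GenomeStudio 2011.1. Once sorted, the 3 arrays hold intensities within 0.274 of each other, as after quantile normalization, and the lowest is 60.2, as without background subtraction. For these settings the sources used here name none. Of 45281 probes 34885 have 1 gene in the platform annotation, 18 several (not named) and 10378 none; symbols were updated through RefSeq (GRCm38.p6), which also gave the promoter windows. Ratios, medians and counts come from pandas 2.3.3 with numpy 2.4.6 under Python 3.11.15, by code tested on simulated data, and plots from matplotlib 3.10.9. Named are every member and, from each other list, at most 5 genes past 2-fold in any comparison, or the 2 with the largest BM 2nd/P ratio; Atf4, scaffold and marker genes and a few further ones were named after their values were seen. Members and lists were chosen with earlier results of these data known. No test across replicates was possible. Alternatives varied background, probe, scaling and threshold.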

Additional observations from a re-analysis of the deposited data

How the results depend on the processing

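No paired analysis was possible because each cell line has 1 array. The cytosolic median log2 BM 2nd/P ratio kept its sign under every alternative tried, and so did each member past 2-fold. Subtracting the background moved that median to -0.80, the second brightest probes (14 genes) to -0.65, genes of at least 500 mean intensity to -0.75, and scaling on the probes above background of each array to -0.34, which put the mitochondrial median at -0.0073; the last 2 were added after seeing the data, as were all alternatives for the pairs. With background subtracted 8 members were lower, 6 cytosolic (Yars joining) and 2 mitochondrial (Mars2 and Nars2), against 6.38% of all genes. Yars and Nars2 were not above background in BM 2nd cells, so the floor of 10 after subtraction set the size of their ratios. Past 1.5-fold 10 were lower and 1 higher, against 6.13% and 6.76%. The scaling left 3 lower against 1.00%, and averaging probes 4, without Mars1, against 1.14%.

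In BM 1st/P the cytosolic median became -0.28 on second brightest probes and the mitochondrial one -0.45 with background subtracted. Members lower, 0 as deposited, numbered 2 of 33 (Wars and Cars2) with background subtracted, near the 8.02% of all genes, 2 of 33 past 1.5-fold, near 6.37%, and 1 of 19 on second brightest probes (0.939%). In BM 2nd/BM 1st the cytosolic median became -0.78 with background subtracted, -0.74 among genes of at least 500 and -0.35 with the scaling. The mitochondrial median there became 0.25, 0.29 and 0.22 under those, and 0.23 on second brightest probes (5 genes). Members higher there numbered 2 with background subtracted (10.0% of all genes) and 0 with probes averaged or second brightest. Members lower numbered 2 with background subtracted (7.52%) or probes averaged (1.40%) and 9 past 1.5-fold (7.11%).

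Second brightest probes left 5 pairs, of which the cytosolic gene was lower in 5 (BM 2nd/P, median -0.43), 3 (BM 1st/P, median -0.33) and 4 (BM 2nd/BM 1st, median -0.63). Genes of at least 500 also left 5 pairs, with counts of 5, 2 and 4. With background subtracted the BM 1st/P count was 3 of 14 (median 0.28). The 3 other background filters and centring moved no median of a compartment by more than the spread between probes. Leaving out a replicate is not possible, and protein motifs were not searched. The number of arrays limits the precision, and near background a lower level is hardly visible.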
